A study of Mus musculus with 2 samples.

Results

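Ccng1, the cyclin G1 gene, was examined here with a set of genes of the p53 response: Ccng2, Trp53, Mdm2, Cdkn1a, Bax, Gadd45a, Sesn1, Sesn2 and Btg2. The genes were listed by name, and every probe set annotated to one of them alone was taken, whatever its signal. Of the 10 genes, 8 had such a probe set, out of 18194 genes with one on the array. They had 19 probe sets in all, and Trp53 and Bax were not analysed here. The measurements were 2 Affymetrix mouse arrays of liver RNA, 1 for each group, and each array carried labelled RNA pooled from 3 livers. The antagomir-122 group received a cholesterol-linked oligonucleotide complementary to miR-122, a microRNA abundant in hepatocytes. The control group received mm-antagomir-122, called scrambled in the labels. The daily dose was 80 mg/kg in both groups, given 3 times, and livers were taken 24 h after the last injection. Strain, sex and age were not given in the sources used here. With 1 array a group there was no replicate error, and no test between the conditions could be run.

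The transcription factor p53 is activated by DNA damage and other stress and switches on genes that halt the cell cycle, repair DNA or start apoptosis. Mdm2 encodes the ubiquitin ligase that marks p53 for destruction and is itself a p53 target, which closes a feedback loop. Cyclin G1 is an atypical cyclin and a p53 target that binds subunits of the phosphatase PP2A and, through it, acts on Mdm2. Ccng1 is also a reported target of miR-122 in liver, so it can respond to that microRNA as well as to p53. Cyclin G2 is its closest relative and is known as a target of FoxO factors.

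Ccng1 and Cdkn1a, the gene of the CDK inhibitor p21, each had a near match to paired p53 consensus letters close to an annotated start. RefSeq windows of GRCm38.p6, from 250 bases before to 50 bases after each annotated start, were searched for the 10-letter p53 consensus and for pairs of it with no gap. The consensus reads the same on both strands, so 1 search covers both. Pairs with at most 1 letter off the consensus were found in 29 of 32851 windows, or 0.0883%. The search was added after the log2 ratios were seen. Among the 10 windows of the 8 measured genes there were 2, shown here with the pair in capitals.
Ccng1: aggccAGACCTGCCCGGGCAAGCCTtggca
Cdkn1a: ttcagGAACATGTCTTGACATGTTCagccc
The Ccng1 stretch is chr11:40755457-40755486 on the minus strand, with the pair starting 195 bases before the annotated start on which that window was built. The Cdkn1a stretch is chr17:29090923-29090952 on the plus strand, with the pair starting 51 bases before the upstream of its annotated starts. A single exact match to the consensus was present in 5 of the 10 windows, those of Ccng1, Cdkn1a, Mdm2, Gadd45a and Sesn1, and in 8.36% of all windows. A match of letters is a description of the sequence and does not show that p53 binds there. Sites outside these windows, and pairs with a gap, were not searched. The lack of a pair in the other measured genes therefore does not show that they lack a p53 site.

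Deposited values were MAS5 signals, a linear intensity for each probe set. A probe set was treated as measured if its mean log2 signal reached the 60th percentile, a signal of 238, and this floor left 16023 probe sets of 10003 genes. All 8 genes passed it, with 15 of their 19 probe sets. The brightest probe set, by the mean log2 signal of both arrays, stood for a gene, and a difference was counted from 1.5-fold. The ratio is always the antagomir-122 signal over the control signal. Between probe sets of the same gene the log2 ratio had an SD of 0.28 over 3860 pairs. This measure of error leaves out the spread between animals and any error shared by the probe sets of an array. It may also hold real differences between transcripts. Hepatocyte markers had summed signals of 237080 and 236321 on the antagomir-122 and control arrays, and 12 of 12 measured were above the floor. These sums rest on probe sets near the top of the range, such as Alb at 26554 and 26970, where a difference can be compressed. Ass1, a urea cycle gene, was the marker past 1.5-fold, at 245 and 531. It rested on 1 probe set above the floor, with an antagomir-122 signal close to 238. That probe set was far dimmer than those of the other hepatocyte markers. The spiked hybridization controls had a median log2 ratio of -0.27 and were lower in 17 of 18 probe sets, so scaling on them would raise every ratio by 0.27.

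Cyclin G1 RNA was higher in the antagomir-122 pool on each of its 3 probe sets, and the size differed among them. On the brightest, 1420827_a_at, the signal was 2318 in the antagomir-122 pool and 809 in the control pool. This is a 2.86-fold difference, or a log2 ratio of 1.52. On 1450017_at the signals were 1262 and 636, a 1.99-fold difference. On 1450016_at they were 1489 and 1155, which is 1.29-fold and under the threshold. All 3 signals were far above the floor on both arrays, and the annotation gives the same source sequence for all 3 probe sets. The mean log2 ratio was 0.96 ± 0.58 (SD over 3 probe sets, which are not replicates), or 1.94-fold.

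**Figure D1:**
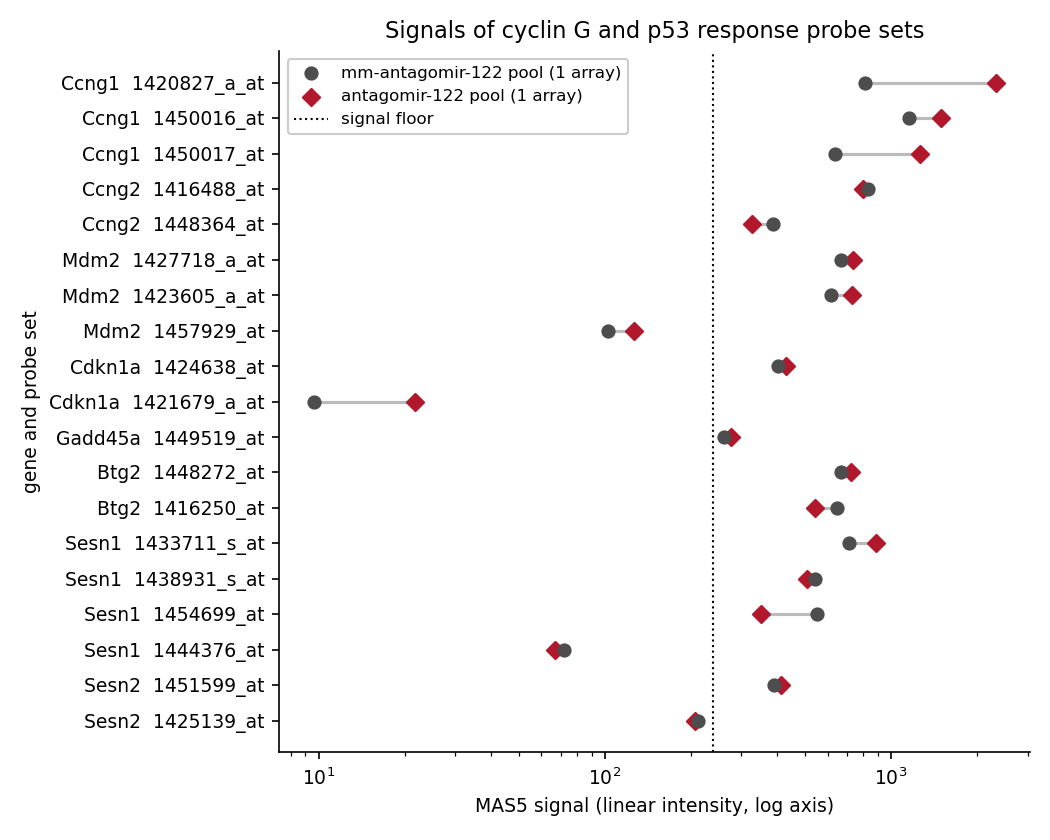
MAS5 signal (linear intensity, drawn on a log axis) of each of the 19 probe sets in the antagomir-122 pool (red diamonds) and the mm-antagomir-122 pool (grey circles), 1 array each. The diamonds lie to the right of the circles for all 3 Ccng1 probe sets, up to 2318 against 809, and close to them for most of the others. The dotted line is the floor of 238.

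Among all 10003 genes, Ccng1 ranked 17 from the top by the log2 ratio of its brightest probe set, 1420827_a_at. Its mean log2 signal over both arrays was 10.42, against 10.36 for 1450016_at. On the control array alone 1450016_at was the brighter, at 1155 against 809. The choice of 1420827_a_at, and with it the rank, thus leaned on the antagomir-122 signal. By single probe sets, 0.162% of the 16023 had a ratio at or above that of 1420827_a_at, 0.886% at or above that of 1450017_at and 13.1% at or above that of 1450016_at. The range of 1.15 between its probe sets was wide for the array. Of 904 genes with 3 probe sets above the floor, 3.32% had a range at least as large, and the median range was 0.39. Of 1409 genes with at least 3 probe sets, 16 had all of them at or above 0.37, the lowest ratio of Ccng1. The suffix _a marks a probe set designed to match several transcripts of one gene. Once suffixed probe sets were left out, the brightest of the remaining Ccng1 probe sets was 1450016_at, and the ratio of the gene was 0.37.

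The other cyclin G gene had ratios near 0. Ccng2 had signals of 798 in the antagomir-122 pool and 829 in the control pool on its brighter probe set, a log2 ratio of -0.05. On the dimmer one the signals were 328 and 386, a log2 ratio of -0.24. Both ratios lay within the SD between probe sets as deposited. The dimmer probe set was just past that SD with quantile normalization (-0.31) and loess correction (-0.30). Scaled on the hybridization controls, the 2 ratios turned to 0.22 and 0.04.

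The ubiquitin ligase gene Mdm2 differed little. Its probe set 1427718_a_at read 735 in the antagomir-122 pool and 670 in the control pool, a log2 ratio of 0.13. A second one, 1423605_a_at, read 729 and 615, a log2 ratio of 0.25. Both ratios were above 0 and, as deposited, within the SD of 0.28. Scaled on the hybridization controls they were 0.41 and 0.52, where the median of all genes was 0.28. The third probe set, at 127 and 103, was under the floor on both arrays and gives no fold.

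Genes that halt the cell cycle were near equal in both pools. Cdkn1a had signals of 430 and 404, a log2 ratio of 0.09. Ccng1 was the other measured gene with a paired p53 consensus in its window, in a search added after the ratios were seen. The part of p53 in the ratio of either gene was not tested. A second Cdkn1a probe set read 21.8 and 9.6, both far under the floor. Gadd45a, a stress-induced partner of the replication clamp PCNA, had 276 and 261 on its only probe set, a log2 ratio of 0.08. That ratio was -0.02 with quantile normalization and 0.35 with scaling on the hybridization controls. Btg2, an antiproliferative gene of the BTG/TOB family, had probe sets on opposite sides of 0. One read 724 and 669, a log2 ratio of 0.11, and the other 544 and 646, a log2 ratio of -0.25. Cdkn1a, Gadd45a and Sesn2 lay among the dimmer genes above the floor, where the SD between probe sets was 0.35 over 588 pairs.

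Sestrins are stress-induced inhibitors of mTORC1 signalling, and the Sesn1 probe sets disagreed. On the brightest, 1433711_s_at, Sesn1 read 885 in the antagomir-122 pool and 711 in the control pool, a log2 ratio of 0.32. On 1438931_s_at it read 510 and 543, a log2 ratio of -0.09. On 1454699_at it read 350 and 553, which is 1.58-fold lower. The suffix _s marks probe sets that can match more than one transcript or gene, and only 1454699_at among these carries none. Without suffixed probe sets Sesn1 was therefore lower, at a log2 ratio of -0.66, and with the mean over probe sets it had -0.15. The remaining Sesn1 probe set, at 66.7 and 72.1, was under the floor. Of the genes with 3 probe sets above the floor, 7.19% had a range at least as wide as the 0.97 of Sesn1. Sesn2 had signals of 413 and 389, a log2 ratio of 0.09, and 206 and 211 on a probe set under the floor.

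**Figure D2:**
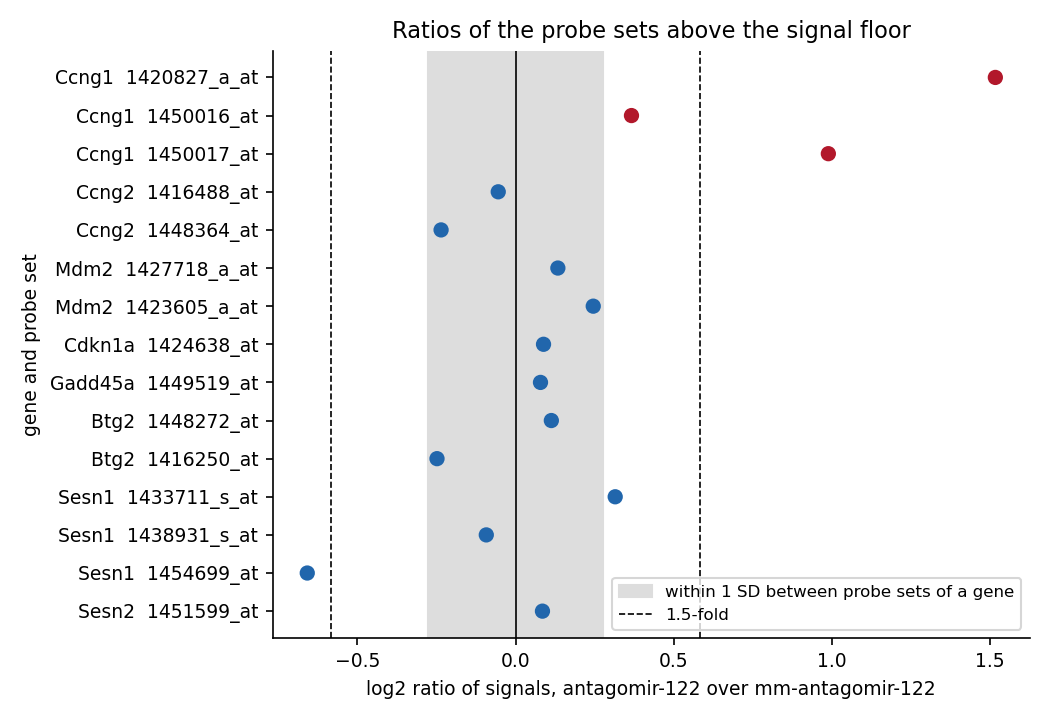
Log2 ratio of signals, antagomir-122 over mm-antagomir-122, for the 15 probe sets above the floor (Ccng1 in red, the other genes in blue). The grey band is 1 SD between probe sets of a gene (0.28) and the dashed lines are 1.5-fold. Past the lines are 2 Ccng1 probe sets on the right and 1 Sesn1 probe set on the left.

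Counted together, 1 of the 8 genes was at least 1.5-fold higher (12.5%, against 5.12% of all 10003 genes) and 0 were at least 1.5-fold lower (against 2.62%). With 8 genes, 1 gene is the smallest step from 0, so the share is not a result about the list. That gene was Ccng1, counted on 1420827_a_at, and its probe set 1450016_at was under the threshold. By probe sets, 2 of 15 were at least 1.5-fold higher, both of Ccng1 (13.3%, against 5.16% of all 16023), and 1 was at least 1.5-fold lower (against 3.24%). The median log2 ratio was 0.10 over the 8 genes and 0.09 over the 7 without Ccng1, against 0.00 over all genes. The 7 other genes ran from -0.05 to 0.32 on their brightest probe sets, none further than 1.24-fold from 1. The gap from Ccng1, on 1420827_a_at, to the next gene was 1.20. Of their 12 probe sets above the floor, 11 were within 1.24-fold, 7 lay above 0 and 5 below. Scaled on the hybridization controls, the median of the 8 genes became 0.38 and that of all genes 0.28. Sesn1 then passed 1.5-fold as well, at 0.59, where 16.9% of all genes were at least 1.5-fold higher and 0.63% lower.

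**Figure D3:**
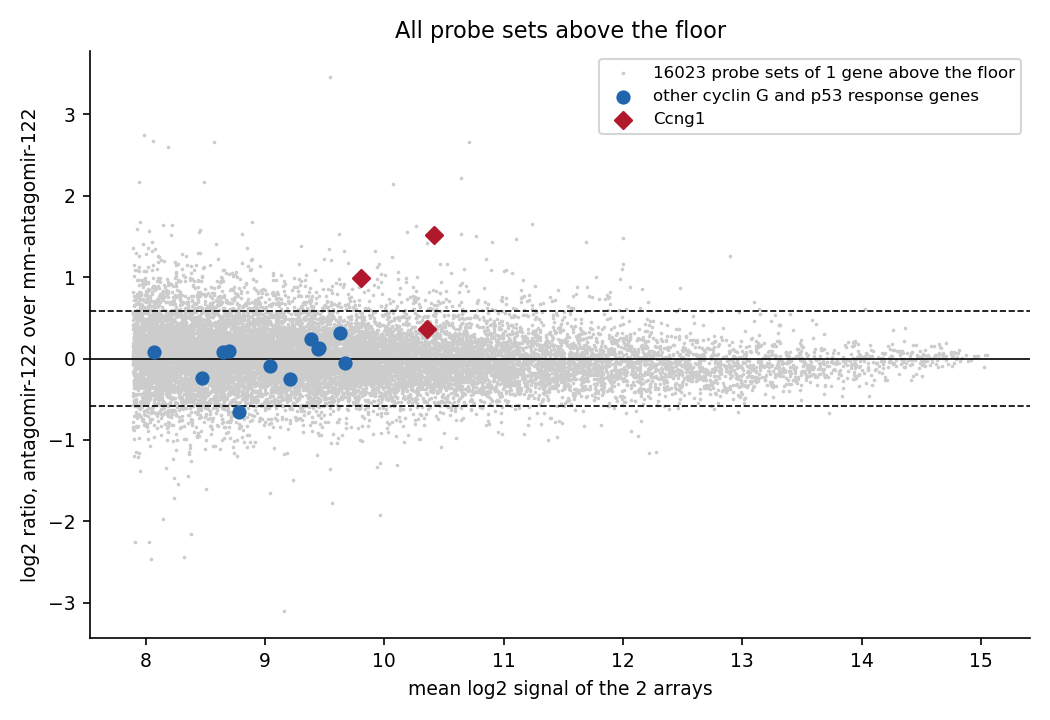
Log2 ratio against the mean log2 signal of the 2 arrays for the 16023 probe sets above the floor (grey), with the 3 Ccng1 probe sets as red diamonds and the 12 probe sets of the other genes as blue circles. The dashed lines are 1.5-fold. The Ccng1 probe sets have log2 ratios of 1.52, 0.99 and 0.37, and the blue circles lie in the grey bulk apart from Sesn1 at -0.66.

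Further p53 targets lay on both sides of 0. Of 40 listed from general knowledge, 36 had a probe set and 25 were above the floor, with 1 higher and 2 lower by 1.5-fold or more, where 5.12% and 2.62% of all genes were. Counts this small are not read as a result about the list. Their median log2 ratio was -0.03, with 11 above 0 and 14 below. Rrm2b, a ribonucleotide reductase subunit for DNA repair, was the higher one. It read 385 in the antagomir-122 pool and 201 in the control pool, which is at least 1.62-fold against the floor. The lower ones encode apoptosis proteins. Bbc3, the gene of the BH3-only protein PUMA, read 250 and 485 (1.94-fold lower). Perp, an apoptosis effector of the plasma membrane, read 1972 and 3127 (1.59-fold lower). Each of the 3 rested on 1 probe set above the floor. Plk3, a stress-linked kinase gene, had a log2 ratio of -0.55, under the threshold.

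By role, the 8 measured targets for arrest and DNA repair had a median of -0.01, the 12 for apoptosis -0.06 and the 5 for metabolism and secretion 0.18. The counts moved with the scaling. After quantile normalization or loess correction 4 of the 25 were at least 1.5-fold lower, where 3.3% and 3.18% of all genes were. With scaling on the hybridization controls 5 were higher and 1 was lower, where 16.9% and 0.63% of all genes were.

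Genes that act on p53 were mixed too. Of 20 regulators, 14 were above the floor, 2 were at least 1.5-fold higher and 0 lower (all genes: 5.12% and 2.62%), and the median was -0.03. Hipk2, a kinase that phosphorylates p53, read 3194 in the antagomir-122 pool and 2014 in the control pool, 1.59-fold higher. Of its 6 probe sets above the floor, 5 had log2 ratios from 0.67 to 1.26 and 1 had -0.35. The control signal behind the value of 1.26 was under the floor. Trp53bp2, the gene of the p53-binding protein ASPP2, read 665 and 382 on its brighter probe set, a 1.74-fold difference. The other went the opposite way, at 259 and 386, a log2 ratio of -0.57, and on the control array it was no dimmer. Mdm4, the Mdm2 relative that restrains p53, had -0.48 and -0.85 on its probe sets above the floor, the second with an antagomir-122 signal under it. Rchy1, a p53 ubiquitin ligase gene, had -0.53.

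On their brightest probe sets, no measured partner of cyclin G passed 1.5-fold in either direction (all genes: 5.12% higher and 2.62% lower). A count of 0 among so few genes is not read as a result about these partners. Of 14 PP2A subunits and kinases listed, 12 were above the floor, with 2 above 0, 10 below 0 and a median of -0.13. The regulatory subunit genes Ppp2r5e and Ppp2r5c had log2 ratios of -0.56 and -0.44 on their brightest probe sets, but other probe sets of each reached 0.30 and 0.60, the latter past 1.5-fold higher. The scaffold subunit gene Ppp2r1a had 0.29 and the catalytic subunit gene Ppp2cb had -0.29. Scaling on the hybridization controls would put the median of these partners above 0.

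Among 30 relatives of the 10 genes, 21 were above the floor, with 1 at least 1.5-fold higher as deposited, 1 lower (all genes: 5.12% and 2.62%) and a median of -0.07. Ccnf, an F-box protein of the cyclin family, read 340 and 168, which is at least 1.43-fold higher against the floor. Bad, a pro-apoptotic BCL2 relative, was 1.60-fold lower on its brighter probe set (812 and 1297) and had a log2 ratio of 0.05 on the other. Bid, another of these, had -0.48, and Bcl2l11, the gene of BIM, had 0.40. The Gadd45a relatives Gadd45b and Gadd45g had 0.39 and 0.28, with -0.05 on the dimmer Gadd45b probe set above the floor. The third sestrin gene, Sesn3, had 0.00 on its brighter probe set and 0.32 on the other above the floor.

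No measured proliferation gene passed 1.5-fold on its brightest probe set (all genes: 5.12% higher and 2.62% lower). Here too, the count of 0 is not read as a result about the list. Of 30 listed genes of the cell cycle phases, 21 were above the floor, 10 lay above 0 and 11 below, and the median was -0.04. Ccnb2, a mitotic cyclin gene, had the largest value, a log2 ratio of 0.46. Ccne1, a cyclin gene of S phase entry, had -0.38 on its brighter probe set and 1.19 on the other, whose control signal was under the floor. Mcm6, a replicative helicase gene, had -0.34, and Mki67, the Ki-67 gene, had 0.33.

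**Figure D4:**
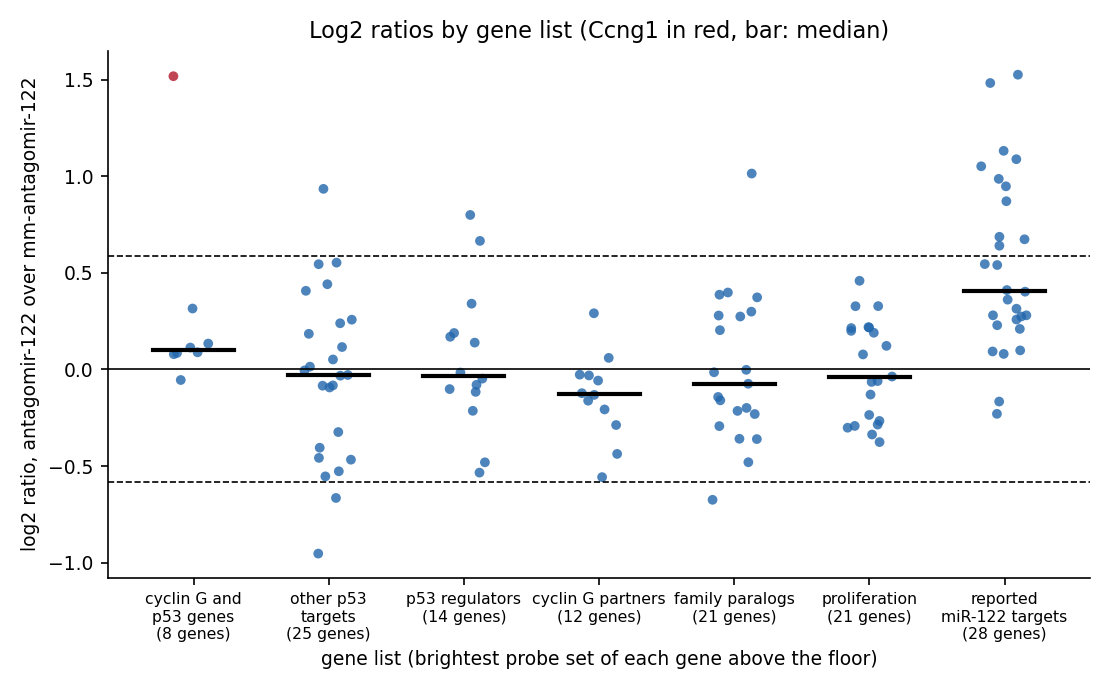
Log2 ratio of the brightest probe set of each gene above the floor, by gene list, with the number of genes under each name. Black bars are medians, dashed lines are 1.5-fold and Ccng1 is red. The medians of the p53, cyclin G partner, relative and proliferation lists lie between -0.13 and 0.10, and that of the reported miR-122 targets is 0.41.

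Among other reported miR-122 targets, Bckdk and Hjv had ratios like that of Ccng1, and most had smaller ones. A list of 30 such genes without Ccng1, written from general knowledge that includes earlier results of these arrays, had 28 above the floor. Of these, 11 were at least 1.5-fold higher, 0 were lower (all genes: 5.12% and 2.62%) and the median log2 ratio was 0.41. Ratios lay above 0 for 26 and below 0 for 2. The direction of that list is therefore not independent evidence. Across the 2 arrays, the genes nearest above Ccng1 (1.52) were Tcerg1l, Bckdk and Ddc, at 1.52, 1.53 and 1.53. Those nearest below were Hjv, Ankrd13c and Slc25a51, at 1.48, 1.43 and 1.43. Bckdk and Hjv belong to the list of reported targets, and Tcerg1l, Ddc, Ankrd13c and Slc25a51 do not. The control signal of Tcerg1l was under the floor.

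Markers of leukocytes moved with the same comparison. Neutrophil markers had summed signals of 35409 in the antagomir-122 pool and 26634 in the control pool, most of it from Lcn2, at 27383 and 24173. Of the 7 above the floor, 6 had ratios above 0, and 5 passed 1.5-fold upwards (all genes: 5.12%). The median of the 7 was 1.28 on the log2 scale. That median is the value of Mpo, whose control signal of 164 was under the floor, which makes it at least 1.68-fold. The control signal of Ltf, also past 1.5-fold, was under the floor as well, at 198. Elane had a log2 ratio of -0.31. S100a8 and S100a9, calcium-binding proteins of neutrophils, were 4.66- and 4.42-fold higher. Macrophage markers summed to 74476 and 56320, with all 12 above 0 and a median of 0.41. Lymphocyte markers summed to 6562 and 3792, with all 5 above the floor higher than 0 and a median of 0.67. Ighm, at 2784.5 and 1309 on its brightest probe set, had log2 ratios from 0.08 to 1.09 over 4 probe sets. The control signal of Cd79a was under the floor, at 207.5. Camp, Cd3d and Cd3e were under the floor on both arrays, and no marker was listed at 0. In bulk RNA, a change in the number of such cells and a change in RNA per cell cannot be told apart, and their part in the ratios of Ccng1 and the p53 genes was not tested.

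**Figure D5:**
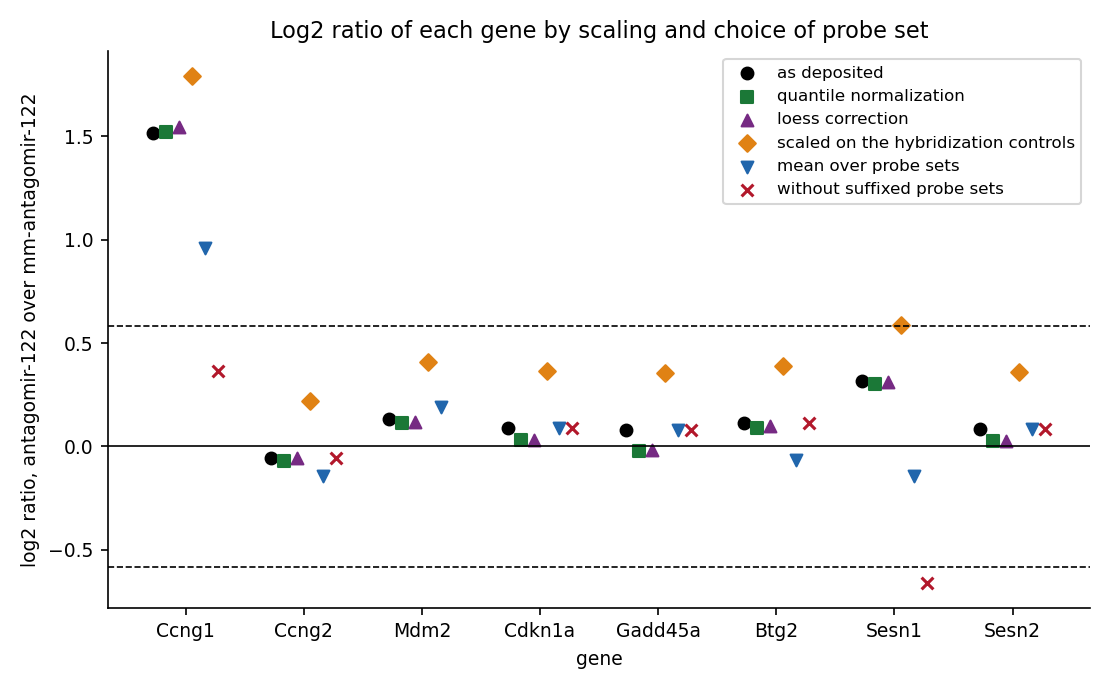
Log2 ratio of each of the 8 genes as deposited, under 3 other scalings, with the mean over probe sets and without suffixed probe sets. The dashed lines are 1.5-fold. Ccng1 runs from 0.37 without suffixed probe sets to 1.79 with scaling on the hybridization controls, and Sesn1 from -0.66 to 0.59. Mdm2 has no value without suffixed probe sets.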

How the data were processed

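Signals were deposited by the authors as linear intensity values for each of 45101 probe sets, per the submitters' processing notes with MAS5 (no version). The 2% trimmed mean was 500.0 on both arrays, so the values were scaled. Detection calls were not used here. Of the probe sets, 34945 had a single gene in the platform annotation, and 34741 of these matched the RefSeq table of GRCm38.p6. Ratios were log2 of the deposited signals with no pseudocount, computed with Python 3.11.15, numpy 2.4.6, pandas 2.3.3 and statsmodels 0.14.6. The steps were tested on simulated data. The genes and lists were chosen with earlier results of these data known, and the promoter search was added after seeing the ratios. Named genes were all 8 measured genes, list genes past 1.5-fold or among the 4 largest of a list, and the 3 genes nearest to Ccng1 on each side. Gadd45b, Gadd45g, Sesn3, some markers and the other genes with a paired consensus were named outside that rule. Alternatives were 4 scalings, a pseudocount of 16, the 40th or 80th percentile as floor, 2 probe set rules, setting dim signals to the floor, and thresholds of 1.4-fold and 2-fold. The number of arrays limits the precision.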

Additional observations from a re-analysis of the deposited data

How the results depend on the processing

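No paired analysis was possible because each group has 1 array. The log2 ratio of Ccng1 was 0.96 with the mean over probe sets and 0.37 without suffixed probe sets, and it moved by less than the SD between probe sets under the other 8 alternatives. Without suffixed probe sets 0 of the 7 genes left were higher and 1 was lower (Sesn1, -0.66), against 5.45% and 2.79% of all genes. By probe sets, 1 was then higher. Scaled on the hybridization controls, 2 of the genes were higher, where 16.9% of all genes were. Of their probe sets 4 were then higher and 0 lower, and the median of the genes was 0.38. With the floor at the 80th percentile 0 probe sets were lower, and at 2-fold 1 was higher and 0 lower. Of the other p53 targets, 4 were lower with quantile normalization and 4 with loess (all genes: 3.3% and 3.18%). With hybridization control scaling 5 were higher and 1 lower (all genes: 16.9% and 0.63%). With the 40th percentile floor 5 of 32 were higher and 3 lower (all genes: 8.8% and 4.03%). With the 80th percentile floor 0 of 9 were higher and 1 lower (all genes: 3.25% and 1.73%). At 1.4-fold 3 were higher and 4 lower (all genes: 8.16% and 4.85%). At 2-fold 0 were higher and 0 lower (all genes: 0.83% and 0.31%). Of 178 values of single genes and probe sets other than that of Ccng1 as a gene, 176 moved by less than that SD. The 2 that did not were those of Sesn1, at -0.15 with the mean and -0.66 without suffixes. The cause was not tested. The count of 176 was partly fixed in advance, as was the result for Ccng1 under the other 8 alternatives. Changing the floor could not alter the ratio of a probe set. Scaling on the hybridization controls shifted every ratio by 0.274, just under the SD of 0.277. One array a group leaves the spread between animals unmeasured, and signals near the floor have larger errors.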

Other observations

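Of the 29 genes whose windows hold a pair of p53 consensus letters with at most 1 off, 7 were above the floor. Ccng1 alone among them was at least 1.5-fold higher, 0 were at least 1.5-fold lower, and the median log2 ratio of the 7 was 0.09. The others were picked out after their values were seen. Rps27l, a ribosomal protein gene known as a p53 target, read 10927 in the antagomir-122 pool and 12918 in the control pool, a log2 ratio of -0.24. Mthfd1, a folate enzyme gene, had -0.33, Bco1, a carotenoid oxygenase gene, had -0.04, and Eprn had 0.25. Bank1, a B cell scaffold gene, had 0.57 at signals of 577 and 389. Lymphocyte markers were also higher in this comparison, and the part of such cells in the Bank1 ratio was not tested. Over all 8165 genes above the floor with a window, the median log2 ratio was -0.01 for the 686 with an exact 10-letter match and 0.00 for the 7479 without. The shares at least 1.5-fold higher were 5.39% and 4.73%. These are descriptions of 2 arrays, with no test.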
